A study of Mus musculus with 24 samples.

Results

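The set described here holds 10 genes of 54393 in the deposited count tables. 6 of them lie on mouse chromosome 3 (Tpm3, Rps3a1, Phgdh, Hsd3b2, Rbm46 and Cd1d2), and 4 are copies of 3 of those genes on other chromosomes (Tpm3-rs7 and Rps3a2 on chromosome 14, Gm9347 on chromosome 7, Gm8341 on chromosome 15). They were picked by name because their read counts set the Dmrt2 control libraries, and libraries 1 and 3 of the group labelled 3XKO, apart from other libraries, so the differences in those 2 comparisons chose the genes and are given below as a description without a test. The picking treated them as markers of a stretch of chromosome 3 inherited from another strain. The labels give a line name in place of a strain, so that reading was not tested. 2 of the 10 genes, Rps3a1 and Phgdh, did not separate the Dmrt2 groups and enter as the parents of copies that did.

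The tissue was whole mouse kidney at embryonic day 18.5, in a study of Dmrt2, Hmx2 and Hmx3, transcription factors with a part in forming intercalated cells, which move acid and base across the collecting duct. The groups were 3 Dmrt2 KO (knockout) and 3 Dmrt2 control kidneys, 3 kidneys labelled 3XKO (Dmrt2; Hmx3; Hmx2 KO) and 3 3XKO controls, and 6 Hmx3; Hmx2 KO and 6 Hmx3; Hmx2 control kidneys, called Hmx KO and Hmx control below. Controls are littermates according to the design text. Alleles, control genotypes, parental strains and whether each library is a separate embryo are not given in the sources used here, so a p-value measures the spread between these libraries, which may be partly technical.

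A tropomyosin, the product of Tpm3, lies along actin filaments and sets how other proteins reach them. The product of Rps3a1 is part of the small ribosomal subunit, and that of Phgdh carries out the first step of serine synthesis. Their copies are of the processed kind, which arise when a spliced messenger RNA is copied back into DNA and inserted elsewhere, without introns. Such insertions can be present in some inbred mouse strains and absent from others. Hsd3b2 belongs to the 3beta-hydroxysteroid dehydrogenases, enzymes of steroid hormone synthesis, Rbm46 to RNA-binding proteins of mouse germ cells, and Cd1d2 to the CD1 family, which presents lipid antigens to T cells.

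How far a parent can be told from its copy depends on their bases, and the stretches below show where reference transcripts differ. Each is 72 bases of the GENCODE vM21 transcripts within the coding part of the parent, chosen for holding the most differences, and capitals mark bases that differ between the pair. Tpm3 (positions 248 to 319 of its transcript) and Tpm3-rs7 (124 to 195) differ at 3 bases here:
Tpm3: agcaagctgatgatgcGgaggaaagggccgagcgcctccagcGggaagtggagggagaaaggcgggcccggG
Tpm3-rs7: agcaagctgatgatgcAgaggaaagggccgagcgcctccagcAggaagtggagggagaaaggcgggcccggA
Rps3a1 (730 to 801) and Rps3a2 (597 to 668) differ at 2 bases:
Rps3a1: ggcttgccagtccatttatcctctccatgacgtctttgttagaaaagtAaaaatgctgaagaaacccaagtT
Rps3a2: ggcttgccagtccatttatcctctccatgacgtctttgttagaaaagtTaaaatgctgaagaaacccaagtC
Phgdh (582 to 653) and Gm9347 (429 to 500) differ at 6 bases:
Phgdh: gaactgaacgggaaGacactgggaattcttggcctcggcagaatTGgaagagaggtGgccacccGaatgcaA
Gm9347: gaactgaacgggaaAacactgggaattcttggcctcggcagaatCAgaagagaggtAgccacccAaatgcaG
Phgdh (1389 to 1460) and Gm8341 (1230 to 1301) also differ at 6 bases:
Phgdh: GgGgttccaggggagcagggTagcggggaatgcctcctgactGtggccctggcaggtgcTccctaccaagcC
Gm8341: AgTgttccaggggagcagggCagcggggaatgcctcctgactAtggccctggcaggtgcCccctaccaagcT

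Over their whole match the pairs fell into a close and a more distant kind. Tpm3-rs7 was 99.1% identical to Tpm3 over 2108 aligned bases, with 13 substitutions of which 3 lie in the coding part, and 33.8% of its windows of 150 bases, the read length, were identical to the parent. Rps3a2 was 99.5% identical to Rps3a1 over 792 bases with 4 substitutions, and 36.4% of its windows were identical. Gm9347 was 97.4% and Gm8341 96.6% identical to Phgdh, with 35 and 53 substitutions, and 0.1% and 0.0% of their windows were identical. Reads with equally good matches in several places were not counted. A read from an identical window may thus count for neither gene of a pair, which would lower both counts. The values of these pairs are uncertain. All bases compared are those of the reference. Bases of the mice used here were not examined, so whether a read counted for a copy came from that copy was not tested. Of the remaining members, Hsd3b2 matched its relatives Hsd3b3 and Hsd3b6 at 93.4% and 92.6% identity, as well as Gm47673 (93.8%), which had no read in any group, and Cd1d2 matched Cd1d1 at 96.4%, while no other transcript matched Rbm46.

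The libraries held 52286824 to 127339273 counted reads, and values are CPM, a gene's reads divided by all counted reads of its library and brought to the usual unit. Dmrt2 averaged 2.01 ± 0.378 CPM in Dmrt2 KO and 13.7 ± 1.2 CPM in Dmrt2 control kidneys (SD, n = 3 each). In the libraries labelled 3XKO Dmrt2 was not lower than in their controls, at 18.6 ± 0.984 and 11.4 ± 0.779 CPM (SD, n = 3 each). The read count of Dmrt2 thus does not show that part of the label. Alleles are not given, so whether Dmrt2 was disrupted in these libraries was not tested. Hmx2 had 2 reads in all in the libraries labelled 3XKO and 872 in their controls, and 8 reads in all in Hmx KO and 807 in Hmx control kidneys. Expression of Y-linked genes was seen in 1 of 3 Dmrt2 KO and all 3 Dmrt2 control libraries, in libraries 1 and 3 labelled 3XKO and 2 of their 3 controls, and in 2 of 6 Hmx KO and 4 of 6 Hmx control libraries.

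In the Dmrt2 line, 7 of the 10 genes were lower in all 3 KO libraries than in any control library, and Tpm3 was higher in all 3. Of the 19807 genes tested in this comparison, 7.42% were lower in every KO library than in every control and 10.7% higher. The same 7 genes (the 4 copies, Hsd3b2, Rbm46 and Cd1d2) had log2 fold changes of at least 1 in size, against 1.74% of all genes tested. The list was picked from this contrast, so these counts describe the choice and carry no further weight. In whole kidneys, fewer cells of a type and less RNA per cell cannot be told apart.

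**Figure D1:**
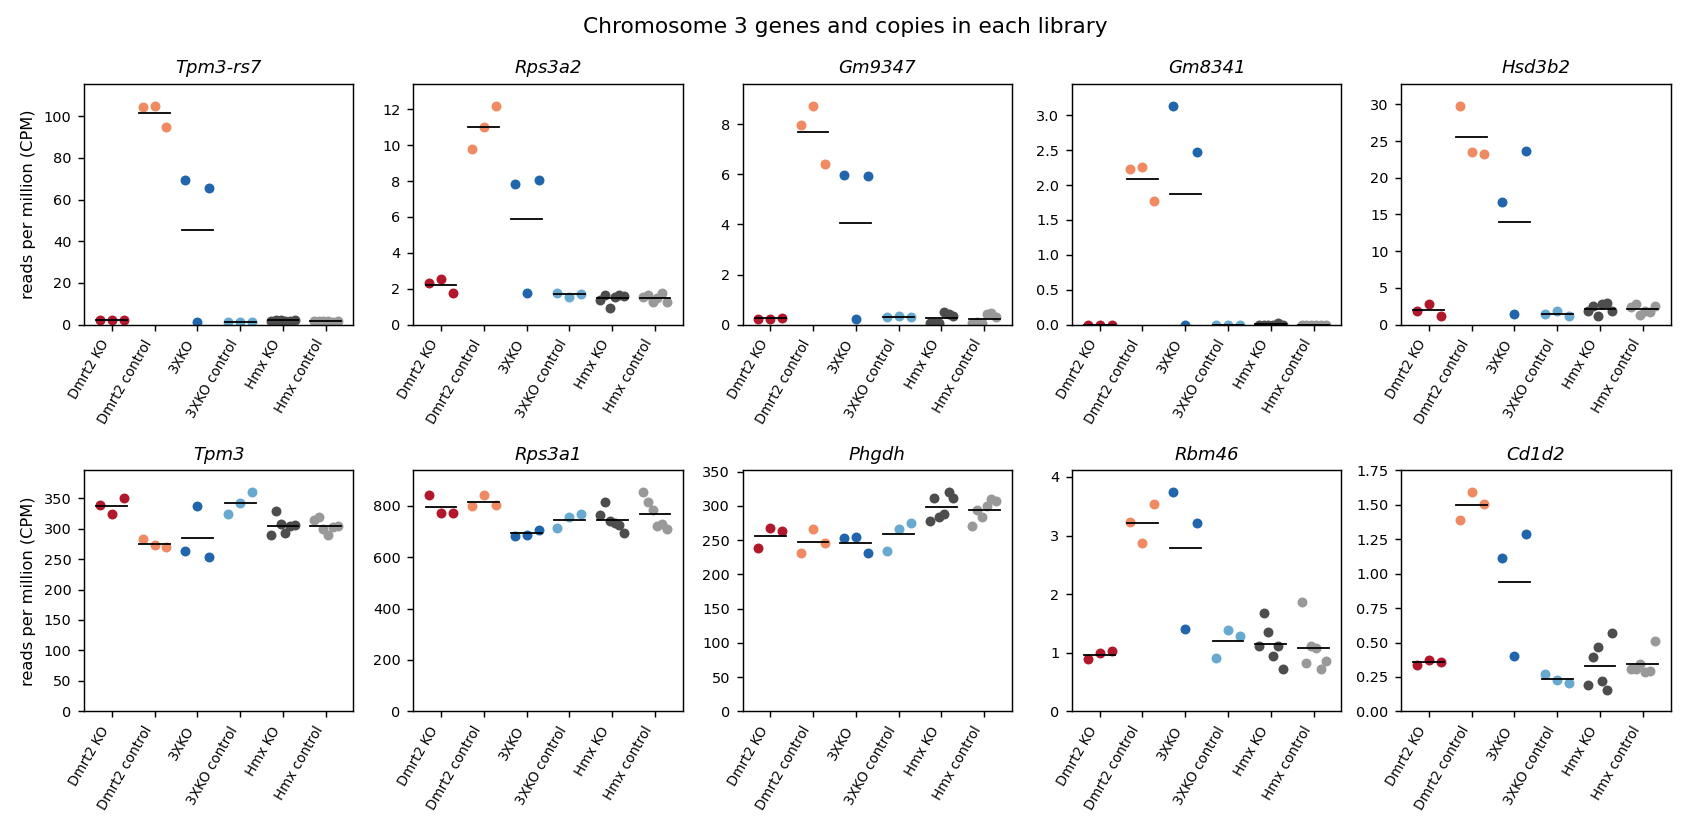
CPM of the 10 genes in each of the 24 libraries, on linear axes from 0, with groups along the horizontal axis, points for libraries and bars for group means. The 3 Dmrt2 control libraries and libraries 1 and 3 labelled 3XKO stand high for the 4 copies, Hsd3b2, Rbm46 and Cd1d2, while Rps3a1 and Phgdh show no such step.

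Tpm3-rs7 (chromosome 14, 113552040 to 113554186 on mm39, plus strand) showed the widest difference that could be expressed as a ratio. It had 1.98, 2.18 and 2.21 CPM in Dmrt2 KO kidneys, against 105, 105 and 94.7 CPM in Dmrt2 control kidneys. The groups were far apart, 47.8-fold lower in Dmrt2 KO in the ratio of means, and the log2 fold change was -5.58 ± 0.08 (SE). Annotated as protein coding in GENCODE vM21, this copy has a single exon of 2147 bases that no other gene's exons overlap. Per kilobase of exon it stood at 47.3 ± 2.72 CPM in Dmrt2 control kidneys, beside 45.3 ± 1.03 for Tpm3 itself in the same libraries (SD, n = 3). Copy and parent did not differ there by more than their spread, but this rests on the lengths used. These were 2147 bases for the copy and 6085 for all annotated exons of Tpm3, while the pair matched over 2108 bases. In Dmrt2 KO kidneys the copy stood at 0.989 ± 0.0586 and Tpm3 at 55.5 ± 2.15 per kilobase (SD, n = 3).

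Tpm3 itself (chromosome 3, 89979956 to 90008209, plus strand) moved the other way. It had 339, 324 and 350 CPM in Dmrt2 KO kidneys, against 282, 274 and 270 CPM in Dmrt2 control kidneys, and the groups did not overlap. The log2 fold change was 0.29 ± 0.05 (SE). Tpm3 was 62.1 CPM higher and its copy 99.4 CPM lower in Dmrt2 KO kidneys, which left the sum of both at 340 ± 13.1 CPM in Dmrt2 KO and 377 ± 11.2 CPM in Dmrt2 control kidneys (SD, n = 3 each), 37.3 CPM lower in KO. The copy held 0.580% to 0.668% of the summed reads in Dmrt2 KO libraries and 26.0% to 27.7% in Dmrt2 control libraries. Per kilobase, with the unequal exon lengths given above, those shares were 1.63% to 1.87% in Dmrt2 KO and 49.9% to 52.1% in Dmrt2 control libraries. How many Tpm3 reads were lost to identical windows in each library was not tested.

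**Figure D2:**
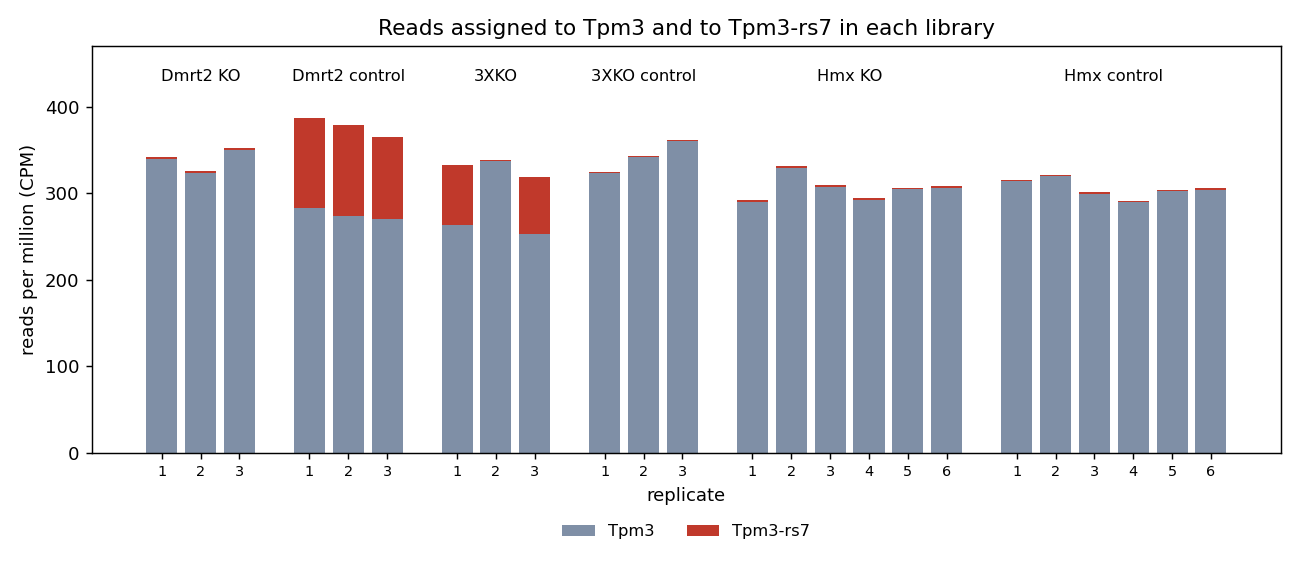
Stacked bars of CPM assigned to Tpm3 and, above it, to Tpm3-rs7 in each of the 24 libraries, numbered by replicate within a group. The copy is a visible part of the bar in the 3 Dmrt2 control libraries (26.0% to 27.7% of the sum) and in libraries 1 and 3 labelled 3XKO (20.9% and 20.6%), and at most 0.730% elsewhere.

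Rps3a2 (chromosome 14, 88360453 to 88361244, minus strand) behaved like Tpm3-rs7 on a smaller scale. It had 2.31, 2.53 and 1.74 CPM in Dmrt2 KO kidneys, against 9.80, 11 and 12.2 CPM in Dmrt2 control kidneys, with no overlap. The ratio of means was 5.01-fold lower in Dmrt2 KO and the log2 fold change -2.35 ± 0.16 (SE). Its parent Rps3a1 (chromosome 3, 86045247 to 86050009, minus strand) is among the abundant transcripts, with 842, 771 and 770 CPM in Dmrt2 KO and 798, 840 and 804 CPM in Dmrt2 control kidneys. The groups overlapped and the log2 fold change was -0.04 ± 0.06 (SE). The copy took 0.226% to 0.328% of the summed reads in Dmrt2 KO and 1.21% to 1.5% in Dmrt2 control libraries.

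Gm9347 and Gm8341, the copies of Phgdh, were near or at 0 in Dmrt2 KO kidneys. Gm9347 (chromosome 7, 136412638 to 136414244, plus strand) had 0.236, 0.227 and 0.267 CPM in Dmrt2 KO kidneys, against 7.99, 8.75 and 6.4 CPM in Dmrt2 control kidneys, with a log2 fold change of -4.96 ± 0.20 (SE). Gm8341 (chromosome 15, 19454841 to 19456438, minus strand) had 0 reads in all 3 Dmrt2 KO libraries, against 160, 176 and 126 reads in Dmrt2 control libraries. Phgdh (chromosome 3, 98220486 to 98247306, minus strand) had 239, 267 and 264 CPM in Dmrt2 KO and 231, 266 and 245 CPM in Dmrt2 control kidneys. These overlapped, with a log2 fold change of 0.04 ± 0.07 (SE), and the sum of Phgdh and both copies was 257 ± 15.6 CPM in Dmrt2 KO and 257 ± 18.1 CPM in Dmrt2 control kidneys (SD, n = 3 each).

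The 3 chromosome 3 genes with no copy in the set were also lower in Dmrt2 KO kidneys. Hsd3b2 (98616571 to 98631859, minus strand) had 1.86, 2.76 and 1.16 CPM in Dmrt2 KO kidneys, against 29.8, 23.5 and 23.2 CPM in Dmrt2 control kidneys, 13.2-fold lower in KO with a log2 fold change of -3.77 ± 0.34 (SE). Rbm46 (82744535 to 82783790, minus strand) had 0.887, 0.991 and 1.03 CPM in Dmrt2 KO and 3.23, 2.88 and 3.53 CPM in Dmrt2 control kidneys, with a log2 fold change of -1.73 ± 0.19 (SE). Cd1d2 (86893858 to 86897087, plus strand) had 0.340, 0.374 and 0.361 CPM in Dmrt2 KO and 1.39, 1.59 and 1.5 CPM in Dmrt2 control kidneys, with a log2 fold change of -2.07 ± 0.24 (SE). None of the 3 overlapped between groups, and within each group their libraries lay close together, with Hsd3b2 the most variable. 2.7% of the exon bases of Hsd3b2 overlap Zfp697 on the other strand, whose reads cannot be told apart from its own there.

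None of the relatives listed here, and no listed marker of adrenal, germ or T cells, passed the test in the Dmrt2 line. Which cells of these kidneys express Hsd3b2, Rbm46 and Cd1d2 was not tested, so the marker lists may not bear on them. Among the other Hsd3b genes, 0 of 5 tested of 8 passed an adjusted p of 0.05 in the Dmrt2 comparison (edgeR, Benjamini-Hochberg over all genes; such genes are said to be called), where 0.444% of all genes passed, and their summed level was 59.7 to 61.2 CPM in Dmrt2 KO and 59.6 to 71.3 CPM in Dmrt2 control libraries. Hsd3b9 made up most of that sum, averaging 48.9 CPM in Dmrt2 KO and 50.5 CPM in Dmrt2 control kidneys. The median log2 fold change of these Hsd3b genes was -0.05, against -0.002 over all genes tested. Hsd3b3, the relative nearest in sequence among them, averaged 1.31 CPM in Dmrt2 KO and 0.841 CPM in Dmrt2 control kidneys, and Hsd3b6 9.0 CPM in Dmrt2 KO and 11.2 CPM in Dmrt2 control kidneys. Hsd3b1 was too low to be tested, averaging 0.0663 CPM in Dmrt2 KO and 0.203 CPM in Dmrt2 control kidneys, with overlap. Of the adrenal genes Star, Cyp11a1, Cyp11b1, Cyp21a1 and Nr5a1, 0 of 3 tested passed, with summed levels of 5.80 to 7.11 CPM in Dmrt2 KO and 5.30 to 7.11 CPM in Dmrt2 control libraries, where Star was the most abundant. Cyp11b1 and Cyp21a1, enzymes of the adrenal cortex, were too low to be tested, Cyp11b1 averaging 0.00985 CPM in Dmrt2 KO and 0.0178 CPM in Dmrt2 control kidneys. Cyp21a1 averaged 0.0420 CPM in Dmrt2 KO and 0.180 CPM in Dmrt2 control kidneys, 0.0295 to 0.0650 CPM against 0.0835 to 0.372 CPM, with no overlap. Nr5a1, a regulator of steroid-producing cells, averaged 0.527 CPM in Dmrt2 KO and 0.369 CPM in Dmrt2 control kidneys, with overlap. What part adrenal tissue has in the difference of Hsd3b2 was not tested.

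Germ cells and T cells were checked beside Rbm46 and Cd1d2. Of the germ cell genes Ddx4, Dazl, Mael and Sycp3, 0 of 2 tested passed, with summed levels of 0.715 to 1.03 CPM in Dmrt2 KO and 0.731 to 1.38 CPM in Dmrt2 control libraries, and Dazl averaged 0.0249 and 0.0367 CPM. Rbm47 and A1cf, sequence relatives of Rbm46, and its germ cell partners Meioc and Ythdc2 gave 0 of 4. Of the T cell genes Cd3e, Cd3g, Cd4, Cd8a and Lck, 0 of 3 tested passed, with sums of 6.22 to 7.80 CPM in Dmrt2 KO and 6.95 to 8.17 CPM in Dmrt2 control libraries. Lck made up most of these sums, averaging 5.58 CPM in Dmrt2 KO and 6.12 CPM in Dmrt2 control kidneys. Cd3e averaged 0 and 0.0178 CPM and Cd3g 0.0151 and 0 CPM, so the sums say little about T cells. Cd1d1, the close relative of Cd1d2, averaged 6.89 CPM in Dmrt2 KO and 7.41 CPM in Dmrt2 control kidneys and did not pass.

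The families of the parents, the kidney genes and the liver genes are lists of 2 to 7 genes, too few for a count of 0 to say much where 0.444% of all genes were called. Tpm1, Tpm2 and Tpm4, the other tropomyosins, had log2 fold changes of -0.16, -0.24 and -0.15 in the Dmrt2 comparison, and 0 of 3 passed. Of Rps3 and Rps3a3, 0 of 2 passed. Psat1, Psph, Shmt1 and Shmt2, which act after or beside Phgdh in serine and glycine synthesis, gave 0 of 4, with sums of 308 to 317 CPM in Dmrt2 KO and 311 to 331 CPM in Dmrt2 control libraries. The kidney genes Six2, Nphs1, Lrp2, Umod, Slc12a3, Aqp2 and Foxi1 summed to 1652 to 1860 CPM in Dmrt2 KO and 1508 to 1962 CPM in Dmrt2 control libraries, and 0 of 7 passed. The liver genes Alb, Apoa1, Ahsg and Ttr gave 0 of 4, with Ttr, a plasma carrier of thyroid hormone, at 29.8 CPM in Dmrt2 KO and 61.9 CPM in Dmrt2 control kidneys. Ttr missed the threshold narrowly, with a log2 fold change of -1.06 ± 0.15 (SE; edgeR, adjusted p = 0.0504). Its ranges of 24.7 to 35.3 CPM in Dmrt2 KO and 52.8 to 66.5 CPM in Dmrt2 control libraries did not overlap. The median log2 fold changes of these lists were -0.16 for tropomyosins, -0.04 for serine and glycine synthesis, 0.07 for the Rbm46 relatives, 0.10 for adrenal, -0.20 for germ cell, -0.14 for T cell, -0.29 for liver and -0.07 for kidney genes.

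The libraries labelled 3XKO were not alike for these genes. For Tpm3-rs7, libraries 1, 2 and 3 had 69.4, 1.40 and 65.4 CPM, against 1.05, 1.24 and 1.36 CPM in 3XKO controls. Libraries 1 and 3 were thus far above their controls and library 2 was just above the highest of them. Rps3a2 had 7.86, 1.74 and 8.03 CPM in the libraries labelled 3XKO, against 1.78, 1.54 and 1.71 CPM in 3XKO controls. Gm9347 had 5.97, 0.234 and 5.94 CPM, against 0.308, 0.324 and 0.294 CPM in 3XKO controls, and Gm8341 had 310, 0 and 280 reads, against 0 reads in all 3 3XKO controls. Each of these copies was high in libraries 1 and 3 and at or near the control level in library 2.

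Hsd3b2, Rbm46 and Cd1d2, on chromosome 3, were likewise higher in libraries 1 and 3 than in library 2, and Tpm3 was lower there. Hsd3b2 had 16.6, 1.5 and 23.6 CPM in the libraries labelled 3XKO, against 1.39, 1.89 and 1.17 CPM in 3XKO controls. Rbm46 had 3.74, 1.40 and 3.21 CPM, against 0.906, 1.40 and 1.29 CPM in 3XKO controls. Cd1d2 had 1.11, 0.404 and 1.29 CPM, against 0.272, 0.231 and 0.202 CPM in 3XKO controls. Tpm3 had 263, 337 and 253 CPM, against 324, 342 and 360 CPM in 3XKO controls, with libraries 1 and 3 below every control and library 2 within their range. The sum of Tpm3 and its copy was 332, 339 and 318 CPM in the libraries labelled 3XKO, against 325, 343 and 361 CPM in 3XKO controls. The copy's share of that sum was 20.9%, 0.414% and 20.6%, against 0.324% to 0.377% in 3XKO controls.

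Because 1 of the 3 libraries differed from the other 2, fold changes over the group labelled 3XKO have wide errors. They were 5.20 ± 1.62 for Tpm3-rs7, 3.68 ± 1.29 for Gm9347, 3.20 ± 1.12 for Hsd3b2 and 1.79 ± 0.63 for Rps3a2 (log2, SE). 4 of the 10 genes had no overlap between the libraries labelled 3XKO and their controls: Tpm3-rs7, Rbm46 and Cd1d2 above, and Rps3a1 below. For Rbm46 this rests on 1.404 CPM in library 2 labelled 3XKO against 1.396 CPM in 3XKO control library 2. With TMM-scaled totals these were 1.389 and 1.432 CPM, so Rbm46 then overlapped. Of the 21537 genes tested, 14.2% were above and 8.92% below in every library labelled 3XKO. 6 of the 9 genes of the set that were tested had a log2 fold change of at least 1 in size, where 4.39% of all genes did, and with library 2 as the only one labelled 3XKO the count was 0. Without 3XKO control library 1, 7 of the 10 genes had no overlap, and without library 2 labelled 3XKO 9 had none. Smaller groups separate more easily, and the share of all genes was not counted for them. The genes were picked by libraries 1 and 3, so the count without library 2 largely follows from the choice. All 590 reads of Gm8341 in this comparison were in libraries 1 and 3.

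Rps3a1 and Phgdh did not follow this split. Rps3a1 had 682, 688 and 707 CPM in the libraries labelled 3XKO, against 714, 756 and 768 CPM in 3XKO controls, with all 3 below and library 2 among them. Phgdh had 253, 254 and 232 CPM, against 234, 266 and 275 CPM in 3XKO controls, with overlap. Their log2 fold changes were -0.13 ± 0.05 and -0.09 ± 0.07 (SE). Among the cell type lists, only the T cell list held a call in this comparison, where 1.03% of all genes were called: Cd8a, a T cell co-receptor, fell to 0.455 CPM in the libraries labelled 3XKO, against 1.71 CPM in 3XKO controls (edgeR, adjusted p = 0.00424). The relatives and the adrenal, germ cell, liver and kidney lists gave 0 calls.

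Placing each library on the scale set by the Dmrt2 line shows where the others fall. With the mean of Dmrt2 KO libraries as 0% and that of Dmrt2 control libraries as 100%, the 7 lower genes had a median position of 67.7% in library 1, -0.13% in library 2 and 82.0% in library 3 labelled 3XKO. The 2 high libraries spread over 62.4% to 150.5% (library 1) and 63.7% to 118.7% (library 3). Gm8341 and Rbm46 lay at or above the Dmrt2 control mean in both, Gm8341 at 150.5% and 118.7% and Rbm46 at 123.5% in library 1. Tpm3-rs7, Rps3a2 and Gm9347 lay lower, at 63.7% to 76.6% in both libraries. The 3XKO controls had medians of -2.26% to -0.18%, and single genes in them ranged from -13.7% to 19.0%.

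**Figure D3:**
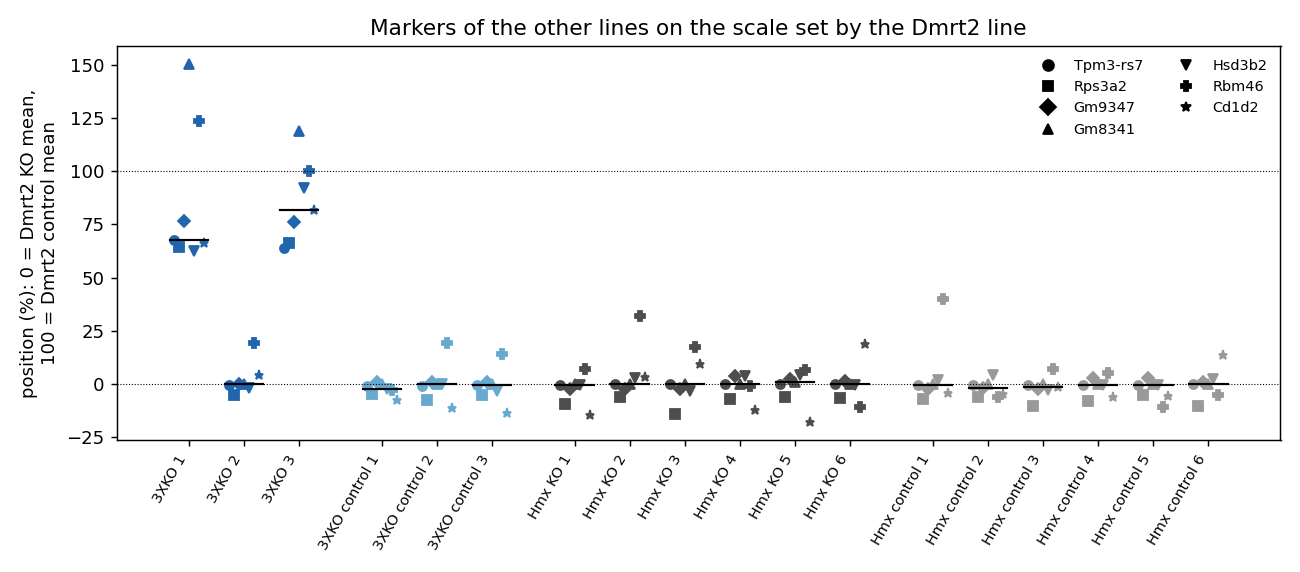
Position of 7 genes in the 18 libraries of the other 2 lines, in percent of the way from the Dmrt2 KO mean (0) to the Dmrt2 control mean (100), with a marker shape per gene and a bar at each library's median. Libraries 1 and 3 labelled 3XKO have medians of 67.7% and 82.0%, and every other library a median between -2.26% and 0.92%.

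The markers and Y-linked expression did not go together in all lines. The Dmrt2 KO library with Y-linked expression had 1.98 CPM of Tpm3-rs7 and 1.86 CPM of Hsd3b2, at the level of the other 2 Dmrt2 KO libraries. The 3XKO controls with Y-linked expression had 1.24 and 1.36 CPM of Tpm3-rs7. The 6 Hmx libraries with Y-linked expression had 1.49 to 1.92 CPM of Tpm3-rs7, beside 1.44 to 2.25 CPM in the 6 without it. All 5 libraries high for the markers did express Y-linked genes.

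The contrast of Hmx KO with Hmx control was not itself used to choose the genes. The Hmx libraries may still be among the other libraries from which the genes were picked to stand apart. Such a choice favours genes that are low in both Hmx groups, so a lack of calls here carries little weight. Tpm3-rs7 had 1.57, 1.98 and 2.25 CPM as lowest, median and highest value in Hmx KO kidneys, against 1.44, 1.53 and 1.92 CPM in Hmx control kidneys. Hsd3b2 had 1.11, 2.20 and 2.93 CPM in Hmx KO and 1.24, 2.09 and 2.85 CPM in Hmx control kidneys. Rps3a2 ranged from 0.931 to 1.67 CPM in Hmx KO and from 1.27 to 1.74 CPM in Hmx control kidneys. Rbm46 ranged from 0.724 to 1.68 CPM in Hmx KO and from 0.722 to 1.86 CPM in Hmx control kidneys, and Cd1d2 from 0.153 to 0.571 CPM and from 0.288 to 0.513 CPM. Gm8341 had a single read in the 12 libraries, in Hmx KO replicate 5. The Hmx KO and Hmx control libraries overlapped for every gene of the set. Of all genes tested, 0.0525% were lower and 0.0157% higher in every Hmx KO library.

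None of the 9 genes tested in the Hmx comparison passed an adjusted p of 0.05 (edgeR quasi-likelihood test over 19050 genes, of which 4, or 0.021%, passed, and 940 had an unadjusted p under 0.05). DESeq2 also called 0 of the 9, and 5 genes in all. 1 of the 9, Tpm3-rs7, had an unadjusted p under 0.05 in edgeR. Its log2 fold change was 0.31 ± 0.13 (SE; adjusted p = 0.944 in edgeR), on means of 1.97 ± 0.247 CPM in Hmx KO and 1.60 ± 0.174 CPM in Hmx control kidneys (SD, n = 6 each). The other 8 log2 fold changes lay between -0.04 and 0.11, with SEs of 0.03 to 0.33. Tpm3 averaged 305 ± 13.8 CPM in Hmx KO and 305 ± 10.8 CPM in Hmx control kidneys, Rps3a1 746 ± 40.6 and 768 ± 58.0 CPM, and Phgdh 299 ± 17.4 and 294 ± 14.6 CPM (SD, n = 6 each). Of the relatives and marker lists, 0 genes passed in this comparison.

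Gm9347 differed between the 2 deposited tables of the Hmx line and not between its groups. Replicates 1 to 3 of both groups had 4 to 8 reads (0.0606 to 0.0875 CPM), and replicates 4 to 6 had 18 to 28 reads (0.308 to 0.509 CPM), with no overlap. No other gene of the set had separate ranges in the 2 tables except Rps3a1, at 742 to 852 CPM in replicates 1 to 3 and 694 to 731 CPM in replicates 4 to 6. The tables were counted separately, and the source of the difference was not tested. The comparison of Hmx groups has the table as a term.

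Levels per kilobase of exon give the order of the genes within a group, and depend on the exon length annotated for each gene. In Dmrt2 control kidneys Rps3a1 stood highest at 833 CPM per kilobase, then Phgdh at 99.6, Tpm3-rs7 at 47.3, Tpm3 at 45.3, Rps3a2 at 13.9, Hsd3b2 at 6.91, Gm9347 at 4.80, Gm8341 at 1.31, Rbm46 at 1.29 and Cd1d2 at 0.980. The neighbours Tpm3-rs7 and Tpm3, and Gm8341 (± 0.171 SD) and Rbm46 (± 0.131 SD), did not differ by more than their spread. In Dmrt2 KO kidneys the order was Rps3a1 at 813, Phgdh at 103, Tpm3 at 55.5, Rps3a2 at 2.77, Tpm3-rs7 at 0.989, Hsd3b2 at 0.522, Rbm46 at 0.388, Cd1d2 at 0.235, Gm9347 at 0.152 and Gm8341 at 0. Hsd3b2 (± 0.217 SD) and Rbm46 (± 0.0295 SD) did not differ there by more than their spread. Each copy stood below its parent in the Dmrt2 KO group.

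The 6 chromosome 3 genes span 82744535 to 98631859, 15.9 Mb that hold 649 genes of the tables. Genes there that are not in the set also differed in the Dmrt2 comparison: 8 of 309 tested were called (2.59%; 6 higher and 2 lower in Dmrt2 KO), against 6 of 700 on the rest of chromosome 3 (0.857%) and 66 of 18788 on other chromosomes without the copies (0.351%). The ends of this stretch were set by genes picked from the same contrast, so the shares describe it and were not tested against each other. Without the set, 14 of 1009 genes of the whole of chromosome 3 were called (1.39%), and 6 of 667 on chromosome 19, where Dmrt2 lies (0.900%). The count of 8 was not stable, at 2 without Dmrt2 KO replicate 2 and 10 without Dmrt2 control replicate 1. Nor are the 8 all separate in position. Among them 1500004A13Rik (88690250 to 88739854) overlaps 5830417I10Rik (88682523 to 88732894), and Zfp697 (98289777 to 98661128) spans Hsd3b2. In the comparison of libraries labelled 3XKO with their controls 4 of 340 such genes were called (1.18%). That is near the 1.03% of all genes and the 1.01% of the rest of chromosome 3 called there. The Hmx comparison called 0 of 298, where 0.021% of all genes were called.

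**Figure D4:**
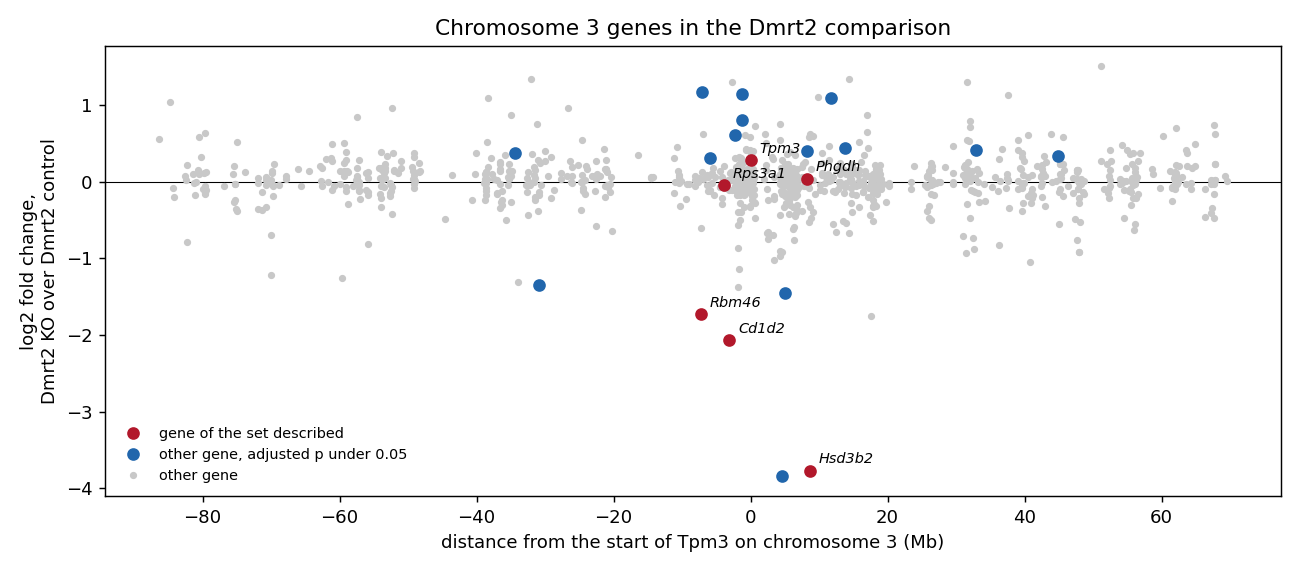
Log2 fold change of Dmrt2 KO over Dmrt2 control for each chromosome 3 gene tested, against the distance in Mb from the start of Tpm3. Hsd3b2, Cd1d2 and Rbm46 lie at -3.77, -2.07 and -1.73, and 8 of the 14 called genes outside the set (blue) lie in the stretch between Rbm46 and Hsd3b2.

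Of those 8 genes, 5830417I10Rik and Insrr kept an adjusted p under 0.05 under all 11 alternatives run. 5830417I10Rik (88682523 to 88732894) had 15.9 to 17.6 CPM in Dmrt2 KO and 7.23 to 7.77 CPM in Dmrt2 control kidneys, a log2 fold change of 1.15 ± 0.09 (SE; edgeR, adjusted p = 4.18e-05). It had 9.72, 22.1 and 10.7 CPM in libraries 1, 2 and 3 labelled 3XKO, against 18.4 to 19.9 CPM in 3XKO controls, the mirror image of Tpm3-rs7. Insrr (87704258 to 87723408), which encodes a receptor of the insulin receptor family that responds to alkaline pH, had a log2 fold change of 0.61 ± 0.08 in Dmrt2 KO (SE; edgeR, adjusted p = 0.00476), with 32.7 to 38.9 CPM in Dmrt2 KO and 22.2 to 25.1 CPM in Dmrt2 control kidneys. It did not split the libraries labelled 3XKO, at 36.7, 37.6 and 44.6 CPM, all above the 16.6 to 19.6 CPM of 3XKO controls (log2 fold change 1.12 ± 0.09 SE; edgeR, adjusted p = 0.000251).

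The other 6 lost their call under between 2 and 7 of the 11 alternatives, with no change of sign. Gm15264 had 0 to 0.0471 CPM in Dmrt2 KO and 0.223 to 0.552 CPM in Dmrt2 control kidneys (edgeR, adjusted p = 0.0415). Tmod4, a tropomodulin that caps actin filaments, had 0.504 to 0.675 CPM in Dmrt2 KO and 1.38 to 2.11 CPM in Dmrt2 control kidneys (edgeR, adjusted p = 0.0326). Fgb, a fibrinogen chain, had 3.35 to 3.84 CPM in Dmrt2 KO and 1.18 to 1.78 CPM in Dmrt2 control kidneys (edgeR, adjusted p = 0.0239). Zfp697, a zinc finger gene that overlaps Hsd3b2, had 56.3 to 60.1 CPM in Dmrt2 KO and 42.0 to 46.7 CPM in Dmrt2 control kidneys (edgeR, adjusted p = 0.0155). Trim2, a ubiquitin ligase, and 1500004A13Rik were 0.31 ± 0.06 and 0.80 ± 0.15 higher on the log2 scale (SE). Zfp697 had 56.4, 66.6 and 56.0 CPM in libraries 1, 2 and 3 labelled 3XKO, against 63.0 to 64.8 CPM in 3XKO controls, and 1500004A13Rik had 2.96, 5.62 and 2.93 CPM, against 3.45 to 4.08 CPM in 3XKO controls. Both were lower in libraries 1 and 3 than in library 2 and than every control. The other 4 gave a mixed picture. Gm15264 had 0.851, 0.0319 and 0.575 CPM in libraries 1, 2 and 3 labelled 3XKO, against 0.0724 to 0.0924 CPM in 3XKO controls, high in libraries 1 and 3. Tmod4 had 1.37, 0.830 and 2.01 CPM, against 0.340 to 0.724 CPM in 3XKO controls, with library 2 above them as well. Fgb had 3.48, 3.87 and 2.21 CPM, against 4.03 to 5.82 CPM in 3XKO controls, with all 3 below. Trim2 had 111, 113 and 103 CPM, within the 94.2 to 114.8 CPM of 3XKO controls.

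Genes outside the set most like Tpm3-rs7 across the 24 libraries were again mostly on chromosome 3. Likeness was the Pearson correlation of log2(CPM + 0.5) over 24 libraries, among 15033 genes with a mean of at least 1 CPM. The libraries fall into 2 clusters, so r mainly measures the gap between them and has no p. Outside the set, 5830417I10Rik came first at r = -0.97, then Selenbp2 at 0.85, Gm7901 at 0.83, Fgb at -0.81 and Arhgef2 at 0.80. For Hsd3b2 the 5 outside the set were 5830417I10Rik at -0.96, Gm7901 at 0.85, Selenbp2 at 0.82, 1500004A13Rik at -0.79 and Zfp697 at -0.78. All of these but Gm7901 lie in the 15.9 Mb stretch, where 1500004A13Rik overlaps 5830417I10Rik and Zfp697 spans Hsd3b2, so they are not all separate in position. The share of the 15033 ranked genes that lie there was not counted. With a correlation of ranks (Spearman's rho), only 1 of the 5 genes was shared for either list. Selenbp2 (94600863 to 94611720), a selenium-binding protein, had 1.71 to 2.76 CPM in Dmrt2 KO and 3.12 to 4.56 CPM in Dmrt2 control kidneys, and 5.15, 1.66 and 4.5 CPM in libraries 1, 2 and 3 labelled 3XKO, against 1.30 to 2.18 CPM in 3XKO controls. Gm7901 lies on chromosome 8 (76438228 to 76439824) and is a further copy of Phgdh, 98.7% identical to it. Within the set, Gm9347 (0.98), Rps3a2 (0.97) and Hsd3b2 (0.97) had the highest r with Tpm3-rs7.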

How the data were processed

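Poly(A)-selected RNA of 24 whole kidneys was read at 150 bases, per the labels' protocols. The authors deposited raw counts of reads per gene in 4 tables, 1 for each line and 2 for the Hmx line. The tools listed in the submitters' processing notes are fastp 0.20.1 (trimming), STAR 2.7.0e (alignment, mm39) and featureCounts 2.0.1, while the file headers give featureCounts 2.0.3 and a filtered GENCODE vM29 annotation. Counting was per gene name over exons, ignored strand, left out multi-mapping and overlapping reads and took reads rather than pairs as the unit, per the file headers. 2 columns of no known sample were left out. In 24 pairs of libraries of a group the chi-square over its degrees of freedom was 5.61 to 29.7, so none was a duplicate.

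The genes and gene lists were chosen with earlier results of these data known. Genes named beyond the set are the listed relatives and markers, the 5 genes most like Tpm3-rs7 and Hsd3b2, and the called genes of the chromosome 3 stretch, at most 10. Fits used edgeR 4.0.16 (TMM, filterByExpr with a minimum count of 10 and total of 15, robust quasi-likelihood test, Benjamini-Hochberg over all genes tested, threshold 0.05) in R 4.3.3, KO against control within a line, with the table as a term for Hmx; a called gene is one past that threshold. SE is the log2 fold change over the square root of F. In simulated counts of the Dmrt2 comparison over 19822 genes, 99% of genes changed by 1 and 100% of those changed by 2 (log2) were recovered. The simulation changed only genes with higher mean counts and gave every gene the same spread between libraries. It therefore checks the fit and does not give the recovery in these data or for genes with few reads. A library counts as Y-expressing above 1 CPM summed over Ddx3y, Eif2s3y, Kdm5d and Uty. Parents and copies were matched with blastn 2.17.0 among GENCODE vM21 transcripts (another build, used for sequence and gene type only); coordinates are those of the tables, on mm39. Alternatives were RLE scaling, DESeq2 1.42.0, no filter, a replicate block, a Y-linked covariate, left-out libraries, TMM-scaled totals and each Hmx table alone.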

Additional observations from a re-analysis of the deposited data

Results flagged for a closer look

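In the 20 groups of 6 libraries examined (10 genes in Hmx KO and Hmx control), 3 held a library far from the others. Chance alone marks about 1 in 20 groups, but the 2 groups of Gm8341, with at most 1 read each, cannot be read against that rate, which leaves 2 in 18. Rbm46 stood at 1.86 CPM in Hmx control replicate 1, with the nearest of the other 5 at 1.12 CPM. Cd1d2 stood at 0.513 CPM in Hmx control replicate 6, with the nearest at 0.342 CPM. Gm8341 stood at 0.0191 CPM in Hmx KO replicate 5, which is 1 read, with 0 in the other 5.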

How the results depend on the processing

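In the Dmrt2 line 7 genes had a log2 fold change of at least 1 in size in each of 11 alternatives, those with a library left out included. No overlap was seen for 8 to 9 genes. The share of all genes with no overlap was not counted for the alternatives of either line. For 3XKO the first count, 6 of 9 tested, was 5 to 7 with a library left out and 0 without libraries 1 and 3 labelled 3XKO, where Gm9347 (-0.42) and Hsd3b2 (-0.0104) changed sign, and no overlap held for 4 to 9 genes with a library left out and 3 with TMM or RLE scaling. No member was called in the Hmx comparison in 20 alternatives (179 values, lowest adjusted p 0.669, 29 changes of sign). Alternatives for the chromosome 3 stretch were added after seeing the data: of the genes outside the set, 8 were called in Dmrt2 KO, against 15 with DESeq2, 19 with no filter, 4 with the replicate block, 2 with the Y-linked covariate and 2 to 10 with a library left out; for 3XKO 4 were called, against 28, 35 and 1 in the same first 3, 1 without libraries 1 and 3, and 1 to 5 with a library left out. Over all genes the calls were 88 in Dmrt2 (417 with DESeq2, 676 with no filter, 13 with the Y-linked covariate, 26 to 195 with a library left out), 222 in 3XKO (1034, 1510, 51 with the block, 14 without libraries 1 and 3, 20 to 438) and 4 in Hmx. The cause was not tested. Replicate numbers share only a number: deviations of same-numbered libraries correlated at 0.03 to 0.15 in Dmrt2, -0.11 to 0.34 in Hmx and -0.40 to -0.12 in 3XKO, and not every library correlated best with its own number; with the replicate block 7 genes in Dmrt2 and 6 in 3XKO kept a log2 fold change of at least 1 in size, and 0 were called in Hmx. Per kilobase the copies' mean shares in Dmrt2 control libraries were 51.1% (Tpm3), 1.64% (Rps3a1) and 5.78% (Phgdh), against 26.9%, 1.33% and 3.81% in reads. With Spearman's rho, 1 of the 5 most alike genes was shared for either gene. Depth limits Gm8341, Cd1d2 and Gm9347 in low libraries, where 3 reads are worth 0.0236 to 0.0574 CPM.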

Other observations

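Further copies of the 3 parents were looked for among transcripts at least 90% identical to a parent over at least 80% of their own length and at least 500 bases long. Of 14 such copies of Phgdh in the tables, 6 had every Dmrt2 control library above every Dmrt2 KO library, every Hmx library and every 3XKO control, Gm9347 and Gm8341 among them. Of 7 copies of Rps3a1 there were 3, Gm13408, Gm7600 and Rps3a2, and of 3 copies of Tpm3 only Tpm3-rs7. Gm9347, Gm8341, Rps3a2 and Tpm3-rs7 were picked for standing high in Dmrt2 control libraries. The share of all genes with this pattern was not counted, so the counts are a description only. Gm7901 had 1.1 to 1.56 CPM in Dmrt2 KO and 2.73 to 3.54 CPM in Dmrt2 control kidneys. Gm7600 had 0.473 to 0.617 CPM in Dmrt2 KO and 1.77 to 2.12 CPM in Dmrt2 control kidneys, and 0.255 to 1.80 CPM in libraries labelled 3XKO against 0.110 to 0.203 CPM in 3XKO controls. Gm13408 had 0.142 to 0.298 CPM in libraries labelled 3XKO against 0.145 to 0.231 CPM in 3XKO controls. Gm13337 had 0 to 0.0236 CPM in Dmrt2 KO and 0.366 to 0.436 CPM in Dmrt2 control kidneys. Gm5207 had no read in the 3 Dmrt2 KO libraries and 0.231 to 0.478 CPM in Dmrt2 control kidneys, and Phgdh-ps1 had 0 to 0.0157 and 0.0563 to 0.111 CPM. These copies were chosen after their values were seen.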
